A study of Mus musculus with 14 samples.

Results

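Mouse embryonic stem cells were carried through neural differentiation in culture, and the untreated control cultures at day 10 (D10) were compared here with those at day 5 (D5). The comparison rests on 7 control libraries, 4 at D5 and 3 at D10, of the 14 libraries in the study. A gene was taken when it was listed in the authors' comparison of both days, which held for 14792 of the 16060 genes listed on either day. All cells were of the GLI1-FTA line in the A2Lox.cre strain, a line with a single landing site through which doxycycline switches on a transgene, here the transcription factor GLI1. The control cells carried the same transgene but received no doxycycline. The other arm, labelled GLI1 OE, received doxycycline at 500 ng/ml for 48 h from D3 to D5 and was then washed, and it gave 4 libraries at D5 and 3 at D10. The drug and GLI1 changed together in that arm. The labels call the D5 cells neural progenitor cells and the D10 cells immature neurons.

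In neural differentiation, dividing progenitors held by SoxB1 factors and Notch signalling express proneural basic helix-loop-helix factors, leave the cell cycle and switch on genes of the neuronal cytoskeleton, of vesicle release and of electrical excitability. Progenitors also pass through a temporal sequence in which the RNA-binding protein Lin28 and its partners decline. Differentiating stem cell cultures often hold cells of other lineages beside the neural ones, among them extraembryonic endoderm and epithelium.

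Levels are given as log2 CPM (read counts scaled to a common library total) of a whole control group, approximated from the authors' deposited average log2 CPM and fold change of that day. No values per library were used, so the levels carry no SD and the day difference carries no p-value. The days were normalized separately in the authors' tables, and a difference in harvest or library preparation between days cannot be told apart from the day itself. In bulk RNA, fewer cells of a type and less RNA per cell cannot be told apart. A gene is said to have risen or fallen where its control level differed between days by at least 1 on the log2 scale, which is 2-fold. This is a size and not a test. Where a gene is said to have stood at a pair of values, these are its log2 CPM levels at D5 and then D10, and a difference is the D10 level minus the D5 level.

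By that size, 1840 of the 14792 genes rose from D5 to D10 (12.4%) and 884 fell (5.98%). The level at D10 was above that at D5 for 7505 genes (50.7%), and the median difference over all genes was 0.01, with quartiles of -0.41 and 0.50. The balance of rises and falls differed with level. Between a mean control log2 CPM of 0 and 2, 507 of 2045 genes rose (24.8%) and 212 fell (10.4%). Between 2 and 4, 683 of 3414 rose (20.0%) and 187 fell (5.48%). At 6 and above 161 of 3539 rose (4.55%) and 170 fell (4.80%). The counts in the lists below stand beside these shares, which were higher for rises at low levels. At 4-fold there were 533 genes higher and 106 lower, and at 8-fold there were 126 higher and 15 lower. The genes that rose held 3.35% of the control CPM at D5 and 10.3% at D10, whereas those that fell went from 6.18% to 2.39%.

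The pulsed arm came from other libraries and covered the same interval. Its levels were computed from the same average log2 CPM of each day as those of the controls. The gap between the arms' day differences is thus the change in the fold change from D5 to D10. It also holds the response to GLI1, and shifts between days that both arms share cancel out of it. Over all genes the spread of the gap, taken as the interquartile range over 1.35, was 0.14 on the log2 scale. It narrowed from 0.68 for genes with a mean control log2 CPM below 0 to 0.21 between 2 and 4 and 0.077 at 6 and above. A gap of 1 or more was seen for 13.7% of the genes below 0 and for 0.198% of those at 6 and above. The arms thus differed most among genes with low levels. The gap does not measure the precision of the day difference in controls, which is unknown at every level.

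The labelled stages were read against their defining markers. Progenitor markers were present on both days and most were lower at D10, as with Sox1, Sox3, Pax6 and Nes. Neuron markers were present on both days and most were higher at D10, as with Dcx, Map2, Mapt and Gap43. The pluripotency factor Pou5f1 stood at 2.66 at D5 and -1.06 at D10. Genes of endoderm, such as Gata4, Sox17, Dab2 and Cubn, and of epithelium, such as Krt8, Krt18, Cdh1 and Epcam, were also listed on both days. Among glial markers, Gfap and S100b were listed on neither day, Sox10 at D10 alone and Mbp, Aqp4 and Olig2 on both. The blood markers Ptprc and Gata1 were listed on neither day. Of the endothelial markers, Pecam1 was listed on neither day and Cdh5 and Kdr on both. Of the mesoderm and cardiac markers, Nkx2-5 was listed on neither day, Tbx6 and Tnnt2 at D10 alone and T on both.

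**Figure D1:**
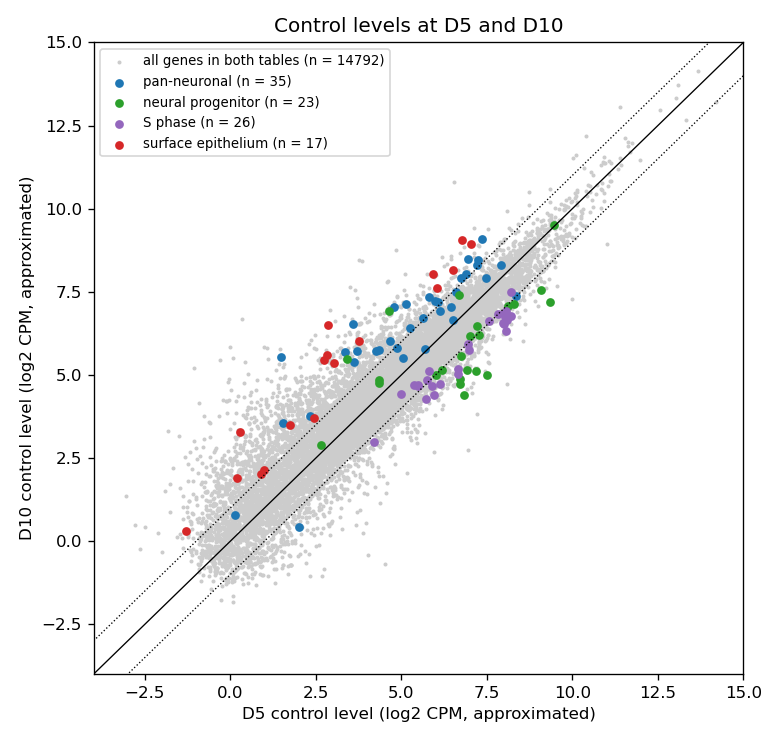
Each point is 1 gene of the 14792 listed on both days, with its approximated control level at D5 (x axis, log2 CPM) and at D10 (y axis, log2 CPM). The solid line marks equal levels and the dotted lines mark a 2-fold difference. Of the 26 S phase genes all lie below the solid line, and of the 17 surface epithelium genes all lie above the upper dotted line.

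The largest rises, among genes with a mean control log2 CPM of at least 3, were mostly in genes of matrix, growth factor and surface proteins. Few of them were neuronal genes. That floor leaves out genes of lower level, among them a gene of transmitter synthesis or transport with a difference of 6.27. Col3a1, a fibrillar collagen gene, rose from 0.34 to 6.68 (81.0-fold), and by 4.82 in the pulsed arm. Igf2, the growth factor gene, rose from 6.55 to 10.79 (18.9-fold), and its imprinted neighbour H19, a long noncoding RNA, rose from 3.86 to 8.41 (23.5-fold). In the pulsed arm Igf2 differed by 4.17 and H19 by 4.48, close to the control values of 4.24 and 4.55. Vcam1, a cell adhesion gene, rose by 4.73, the pantetheinase gene Vnn1 by 4.87 and Igfbp2, which encodes a binder of insulin-like growth factors, by 4.70. Rbp4, the retinol carrier of plasma and a product of yolk sac and liver, rose by 3.90, as did Col1a2. The neural adhesion gene Chl1 was the member of the pan-neuronal list among these 15, at 1.49 on D5 and 5.54 on D10. The others were Lgals9, 4933402E13Rik, Slco2a1, Emp2, Tinagl1 and Cd55b, with differences of 3.81 to 4.36. In all 15 the pulsed arm rose as well, by 3.60 to 5.58.

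Among genes with a mean control log2 CPM of at least 3, the largest fall was that of Mylk, the myosin light chain kinase gene, from 6.95 to 2.74 (18.6-fold), and it was -3.99 in the pulsed arm. Fndc3c1 fell from 8.10 to 4.72, and the related Fnd3c2 from 5.97 to 2.69. Tenm4, a teneurin of cell adhesion, fell from 7.20 to 3.82. Xist, the noncoding RNA of X inactivation, fell from 5.16 to 2.04. Progenitor and neural genes were among the 15 largest falls. Crabp1, a binder of retinoic acid inside the cell, fell from 9.98 to 7.29, the growth factor gene Ptn from 7.51 to 5.00 and the SoxB1 gene Sox3 from 6.83 to 4.39. Cubn, the endocytic receptor of visceral endoderm and kidney, fell from 8.55 to 6.03. The others were Pdzph1, Peg12, Sema5a, Agtr1a, Rln1 and Klhl29, with differences of -2.43 to -2.82. The pulsed arm fell in all 15, by 1.95 to 3.99.

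Cell cycle genes were lower at D10, and genes of DNA replication more so than genes of mitosis. Of 26 S phase genes 17 fell, none rose and all 26 had a difference below 0, with a median of -1.22 against 0.01 over all genes. The fall of the replicative helicase was shared by its subunits. Mcm5 fell from 8.05 to 6.33, Mcm7 from 8.09 to 6.65, Mcm3 from 8.02 to 6.74, Mcm2 from 8.04 to 6.92, Mcm4 from 7.99 to 6.87 and Mcm6 from 7.83 to 6.83. Pola1, the catalytic subunit of the priming polymerase, fell by 1.63, the sliding clamp gene Pcna by 1.40 and Ccne1, the G1/S cyclin, by 1.43. Nucleotide supply followed, with differences of -1.56 for Tyms and -1.48 for Rrm2. The smallest difference was that of E2f1 at -0.54. The summed level of the list went from 3817 to 1660 CPM, and its median in the pulsed arm was -1.10.

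Of 26 mitosis genes 2 fell and none rose, yet 25 differed in the same direction, with a median of -0.68 in controls and -0.61 in the pulsed arm. Mki67, the proliferation marker, fell from 9.17 to 7.80 and Foxm1, the transcription factor of G2/M genes, from 6.81 to 5.63. The spindle and checkpoint genes Bub1b, Cenpf, Kif11, Plk1 and Aurkb had differences of -0.96, -0.89, -0.83, -0.75 and -0.74. Top2a differed by -0.67, Ccnb1 by -0.60 and Cdk1 by -0.29, and Hmmr stood at 6.62 and 6.66. The summed level went from 4476 to 2732 CPM.

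Promoters of these genes are shown because genes of both phases carry short elements that are known from textbook work. E2F sites are known from S phase genes, whereas the CHR element TTTGAA and CCAAT boxes are known from G2/M genes. A promoter window from RefSeq (GRCm38.p6) of 250 bases before to 50 bases after the start was at hand for 10736 of the 14792 genes, matched by Entrez identifier, and both strands were searched. The E2F letters TTTCCCGC or TTTGGCGC were found in 8 of 23 S phase genes (34.8%), in 0 of 21 mitosis genes and in 3.4% of all genes. TTTGAA was found in 16 of 21 mitosis genes (76.2%), in 4 of 23 S phase genes (17.4%) and in 14.1% of all genes. CCAAT was found in 18 of 21 mitosis genes, in 16 of 23 S phase genes and in 43.7% of all genes. The stretches below give the bases just before the outermost annotated start, 5′ to 3′ on the strand of the gene. They are from list members with the most negative day differences among those whose letters lay in that stretch. Kif11 and Cdc20, with differences of -0.83 and -0.77, stayed within 2-fold. Capitals mark the E2F letters in Mcm5 and Mcm6, and TTTGAA and CCAAT (or their reverse complements TTCAAA and ATTGG) in Mki67, Kif11 and Cdc20. Mcm5 lies at chr8:75109318-75109467 (plus strand), Mcm6 at chr1:128359706-128359855 (minus), Mki67 at chr7:135716451-135716600 (minus), Kif11 at chr19:37376232-37376381 (plus) and Cdc20 at chr4:118437344-118437493 (minus).
Mcm5: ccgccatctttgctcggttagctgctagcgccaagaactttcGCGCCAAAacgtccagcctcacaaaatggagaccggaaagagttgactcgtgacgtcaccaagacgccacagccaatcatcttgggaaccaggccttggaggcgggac
Mcm6: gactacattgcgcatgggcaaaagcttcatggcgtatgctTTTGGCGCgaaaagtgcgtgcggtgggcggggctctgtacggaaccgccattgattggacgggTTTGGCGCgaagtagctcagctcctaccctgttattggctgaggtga
Mki67: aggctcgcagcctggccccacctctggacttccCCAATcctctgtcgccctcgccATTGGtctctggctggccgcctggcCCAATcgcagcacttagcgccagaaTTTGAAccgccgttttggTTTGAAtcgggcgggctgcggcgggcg
Kif11: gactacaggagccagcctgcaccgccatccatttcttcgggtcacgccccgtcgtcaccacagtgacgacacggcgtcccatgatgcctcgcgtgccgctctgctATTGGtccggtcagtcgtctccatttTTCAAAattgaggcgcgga
Cdc20: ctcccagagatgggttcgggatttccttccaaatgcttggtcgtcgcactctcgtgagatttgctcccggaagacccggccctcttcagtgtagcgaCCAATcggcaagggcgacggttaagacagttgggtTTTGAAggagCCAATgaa

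There were 2 copies of the E2F letters in Mcm6 and 2 of TTTGAA in Mki67. A match is a description of letters. Over all genes that fell, the E2F letters were found in 7.29% of 617 with a window, and over all that rose in 1.65% of 1336.

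Regulators of G1 moved little as a group. Of 16, 2 rose and 1 fell, shares close to the 12.4% and 5.98% of all genes, with a median of 0.19. Cdkn1a, which encodes the Cdk inhibitor p21, rose from 6.84 to 8.22, and Cdkn2b, which encodes p15, from 2.09 to 3.98. The inhibitor genes Cdkn1b and Cdkn1c differed by 0.72 and 0.42. Mycl fell from 7.39 to 6.18, Mycn differed by -0.54, and the D cyclins Ccnd1, Ccnd2 and Ccnd3 by -0.40, -0.49 and 0.93. Beside Cdkn1a, 10 of 12 p53 targets stayed within 2-fold, as did 81.6% of all genes. Mdm2 differed by 0.32 and Bax by -0.27, and Sesn2 fell by 1.07.

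**Figure D2:**
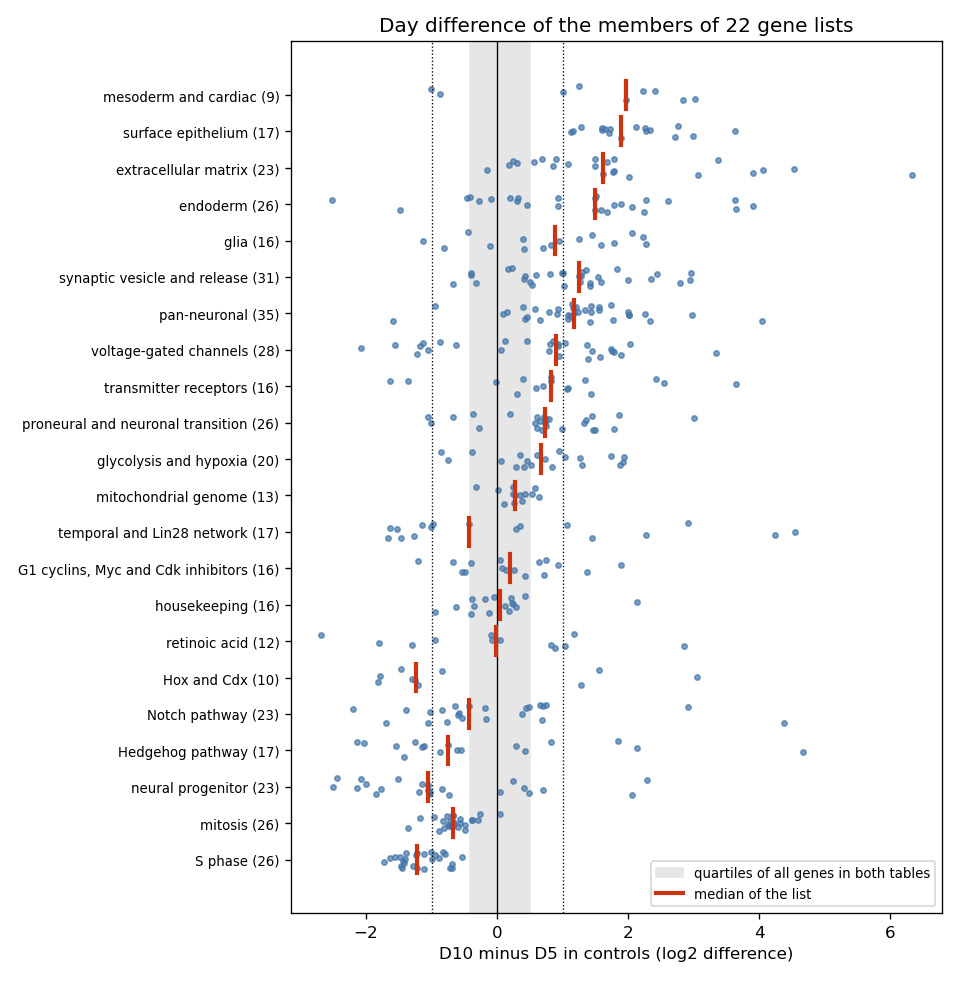
Day differences (D10 minus D5, log2) of the control level for the members of 22 gene lists, with 1 point per gene and the number of genes listed on both days in parentheses. Red bars mark list medians, from -1.23 for the Hox and Cdx list to 1.98 for the mesoderm and cardiac list. The grey band spans the quartiles of all genes (-0.41 to 0.50) and dotted lines mark 2-fold.

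Progenitor genes fell. Of 23 listed on both days 14 fell and 2 rose, with a median of -1.05 (-0.98 in the pulsed arm), and their sum went from 4107 to 2259 CPM. The SoxB1 genes that hold the progenitor state moved together: Sox1 fell from 6.71 to 4.71, Sox2 from 7.27 to 6.21 and Sox3 from 6.83 to 4.39. Pax6, a regulator of neural progenitors, fell from 7.19 to 5.12. N-cadherin (Cdh2) fell from 9.34 to 7.19 and the intermediate filament gene Nes from 9.07 to 7.56. Rfx4, Sox21, Prom1, Msi2, Zfp521, Hmga2 and the Notch target Hes5 fell as well. Not all progenitor genes followed. Vim, an intermediate filament of many cell types, stood at 9.45 and 9.50, Sox9 and Hes1 differed by 0.42 and 0.49, and Fabp7, a radial glia gene, by 0.70. The members that rose were Slc1a3, the glial glutamate transporter of radial glia and astrocytes, from 3.41 to 5.47, and Gpm6a, a membrane glycoprotein gene that neurons also express, from 4.63 to 6.91.

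Genes of the transition to neurons were higher at D10. Of 26 listed on both days 8 rose, 2 fell and 21 lay above 0, with a median of 0.73. The proneural factors split. Neurog2 rose from 2.39 to 4.17, whereas Neurog1 stood at 3.77 and 3.41, Neurod1 at 3.09 and 3.84 and Neurod4 at 3.94 and 4.52. Some of the other factors rose: Myt1l, a repressor of non-neuronal genes, from 0.55 to 3.56, Myt1 from 4.46 to 6.32, and the Scratch genes Scrt1 and Scrt2 by 1.50 and 1.32. Nhlh2 and St18 rose by 1.47 and 1.45. Of the 26 genes 16 stayed within 2-fold. Among these, Ebf1, Ebf2 and Ebf3 differed by 0.75, 0.72 and 0.20, Insm1 and Nhlh1 by 0.61 and 0.73, and Onecut2 by -0.67. The Notch ligand gene Dll1, a mark of nascent neurons, fell from 6.92 to 5.87, and Dll3 differed by 0.68. Eomes fell as well, from 0.78 to -0.23. Atoh1 was listed at D10 alone, at 1.03.

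Pan-neuronal genes rose. Of 35 listed on both days 23 rose, 1 fell and 33 lay above 0, with a median of 1.17 in controls and 1.53 in the pulsed arm. Their sum went from 2476 to 4887 CPM. Among microtubule and growth cone genes, Dcx rose from 7.35 to 9.09, Map2 from 6.93 to 8.49, Mapt (tau) from 4.79 to 7.05, Gap43 from 5.13 to 7.13, Stmn2 from 6.74 to 7.92 and Stmn4 from 3.57 to 6.54. The adhesion genes L1cam and Ncam1 rose by 2.33 and 1.11, and the motor gene Kif5c by 1.20. RNA-binding proteins differed among themselves. Elavl4 rose by 1.55 and Rbfox3 (NeuN) from 1.53 to 3.55, Elavl3 differed by 0.79 and Elavl2 by 0.09. Tubb3, the neuronal tubulin often used to stain young neurons, stood at 7.91 at D5 and 8.31 at D10, so most of its D10 level was already present at D5. Dpysl5, a gene of the collapsin response family, stood at 8.34 and 7.39.

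Among the pan-neuronal genes Nefm, a neurofilament subunit gene, had the widest gap between arms. It stood at 7.48 and 7.91 in controls and differed by 2.11 in the pulsed arm, and Nefl rose by 1.14 in controls and 2.28 in the pulsed arm. Ina, the alpha-internexin gene, rose by 1.23 and 1.70. Nefh, the subunit of mature axons, fell by 1.59 on the log2 scale in controls.

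Genes of vesicle release rose too. Of 31 listed on both days 18 rose, none fell and 27 lay above 0, with a median of 1.25, and the sum went from 477 to 946 CPM. For the release machinery, Snap25 rose from 3.61 to 5.03, Vamp2 from 4.92 to 6.17 and the calcium sensor Syt1 from 2.59 to 4.18. Among vesicle proteins, Syp rose from 3.79 to 5.08, Sv2a from 2.34 to 4.69, Rab3a from 2.47 to 4.91 and Rab3c from 3.74 to 6.53. Syt4 rose from 2.79 to 5.74 in controls, with 1.08 in the pulsed arm. The synaptic adhesion genes Nrxn3 and Nlgn1 rose from 0.88 to 3.85 and from 0.40 to 2.39, and the postsynaptic scaffold gene Dlg4 by 1.54. The other 13 members stayed within 2-fold. Among them were the vesicle phosphoprotein gene Syn1, at 3.16 and 3.67, and the active zone genes Bsn and Pclo, with differences of 0.41 and -0.40. The scaffold gene Homer1, with -0.67, was another.

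The REST repressor, which silences neuronal genes outside neurons, binds a long element made of a left and a right part. The letters TTCAGCACC of the left part were found in 3 of 21 vesicle release genes with a window (14.3%) and in 0.494% of all genes. The right part of the same element was found in 1 of 21 and in 0.866%. The Syn1 stretch is shown as an example from the pan-neuronal and vesicle release lists, with letters of the left part just before its outermost start. Not every member of these lists was searched for a stretch to show, so others may hold such letters there. The Syn1 stretch lies at chrX:20920919-20921168 on the minus strand, with TTCAGCACC in capitals.
Syn1: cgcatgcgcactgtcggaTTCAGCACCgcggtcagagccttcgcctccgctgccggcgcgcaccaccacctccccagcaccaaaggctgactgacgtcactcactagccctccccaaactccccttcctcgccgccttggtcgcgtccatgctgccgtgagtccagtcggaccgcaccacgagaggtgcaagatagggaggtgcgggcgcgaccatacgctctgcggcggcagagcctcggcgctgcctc

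The letters stand near the end of the stretch that is farthest from the start. Rest itself stood at 5.59 at D5 and 5.50 at D10. The E-box CAGCTG, a form that proneural factors are known to bind, was found in 24.7% of the genes that rose, 17.0% of those that fell and 17.5% of all genes, and in 9 of 21 vesicle release genes (42.9%). The E-box CAGATG, another form, was found in 14.6% of the genes that rose, 14.6% of those that fell and 13.2% of all genes, and in 3 of 21 vesicle release genes (14.3%).

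Splicing regulators and chromatin subunits are known to be exchanged as neurons mature. Of 16 such genes 2 rose and 1 fell, shares close to the 12.4% and 5.98% of all genes, and the median of 0.11 was -0.09 at a mean log2 CPM of at least 3. Actl6a, the BAF subunit of progenitors, fell from 6.97 to 5.90, and Actl6b, its neuronal counterpart, rose from 1.43 to 3.62. The splicing regulator gene Rbfox1 rose from 1.05 to 4.28. Ptbp1, the repressor of neuronal exons, stood at 8.76 and 7.83, and Ptbp2 at 7.58 and 7.30. The neuronal splicing activator genes Srrm4 and Srrm3 differed by -0.28 and 0.96.

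Excitability genes moved in both directions. Of 28 channel genes listed on both days 11 rose and 6 fell, with a median of 0.90. Among sodium channels, Scn3a, the embryonic form, rose from 3.45 to 5.20, Scn2a from 1.88 to 3.64 and the auxiliary subunit gene Scn3b from 2.45 to 5.80, whereas Scn8a, the form of mature axons, fell from 4.89 to 3.76. Among potassium channels, Kcnd3 rose by 1.57 and Kcna1 fell by 2.08 on the log2 scale. Among calcium channels, Cacna1h and Cacna1d rose by 1.89 and 1.39, and Cacna1g and Cacna1a fell by 1.22 and 1.17. Kcna1 fell by less in the pulsed arm, with -0.47.

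Of 21 genes of transmitter identity 7 were listed on both days, with 5 higher and 1 lower, 11 at D10 alone, none at D5 alone and 3 on neither. Over all genes 952 of 16060 were listed at D10 alone. For GABA, the vesicular transporter gene Slc32a1 rose from -0.64 to 3.58 and the synthesis gene Gad2 from -0.93 to 4.14, and Gad1 was listed at D10 alone, at 3.53. For glutamate, the vesicular transporter gene Slc17a6 was listed at D10 alone, at 4.51. For catecholamines, Ddc rose from 1.34 to 4.02 and Th was listed at D10 alone, at 3.75, with Dbh at 0.78. Acetylcholine genes stayed low, with Slc18a3 at 1.27 and 1.14 and Chat at 0.42 at D10. The glycine transporter gene Slc6a9, also a progenitor and glial gene, fell from 4.41 to 3.01.

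Receptor genes rose in part, with 7 of 16 higher and 2 lower, against 12.4% and 5.98% of all genes. A further 9 were listed at D10 alone, against 952 of 16060 genes. Gria2, the AMPA receptor subunit that limits calcium entry, rose from 1.18 to 4.83, Gabrb2 from 1.69 to 4.24 and Grin2d from -0.39 to 2.04. The glycine receptor subunit gene Glra1 fell from 2.58 to 0.95 and Gabra5 from 0.66 to -0.69.

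**Figure D3:**
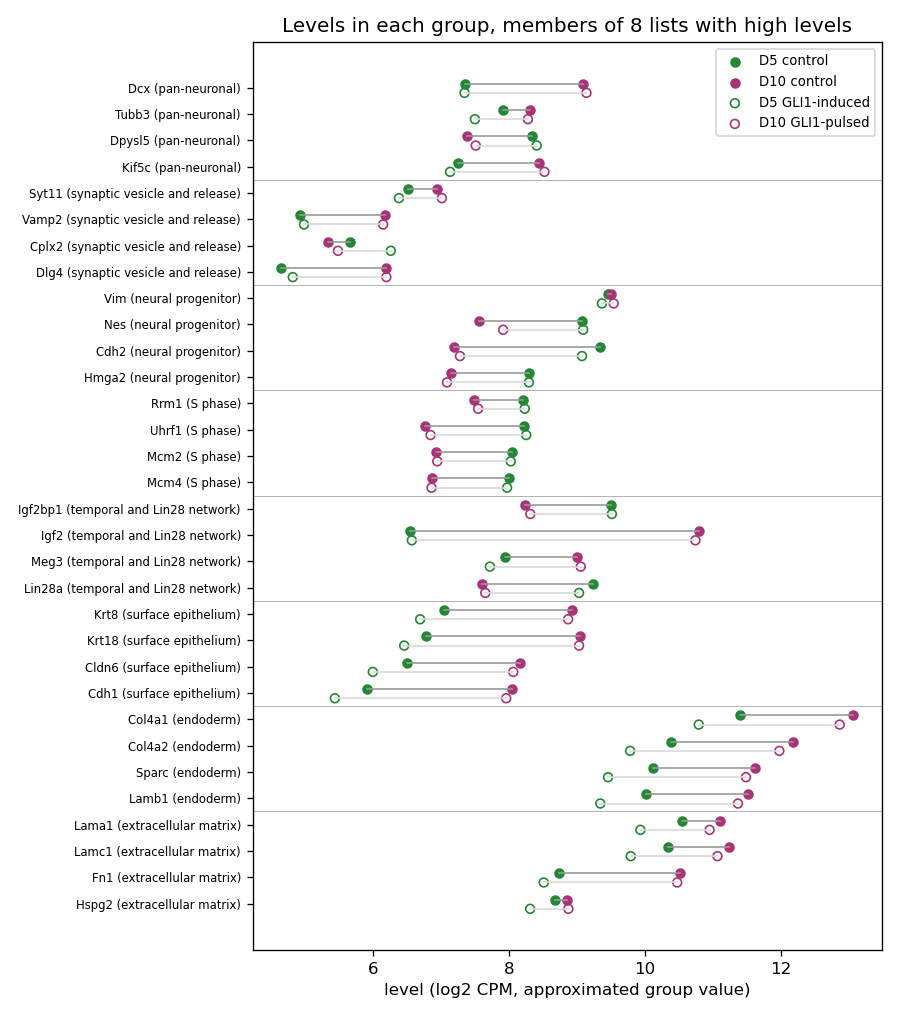
Approximated level (log2 CPM) of 4 genes from each of 8 lists, chosen among members with high mean control levels, in D5 controls (filled green), D10 controls (filled purple) and the GLI1-pulsed arm (open circles of the same colours). Lines join the days within an arm. Igf2 stands at 6.55 and 10.79 in controls, and Nes at 9.07 and 7.56.

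Position along the body axis is read from Hox genes, and across the neural tube from homeodomain genes. Several anterior Hox genes of the hindbrain fell: Hoxb2 from 6.06 to 4.25, Hoxb3 from 5.95 to 4.49, Hoxa2 from 5.18 to 3.97, Hoxa3 from 4.40 to 3.15, Hoxb4 from 2.92 to 1.63 and Hoxa4 from 1.69 to -0.09. Of 42 Hox and Cdx genes 10 were listed on both days and 22 on neither. Of the 10, 6 fell and 3 rose, with a median of -1.23. The members that rose were Hoxc4, Hoxc13 and Cdx2, a gene of trophectoderm, gut and the posterior axis, which went from 0.90 to 3.96. Of 25 forebrain and midbrain genes 8 were listed on both days and 10 on neither. En1 rose from -0.47 to 2.10 and Otx2 stood at 0.09 and 1.02.

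Of 17 dorsal and intermediate progenitor genes 8 rose and 4 fell. Dbx1 fell from 7.43 to 5.11, Dbx2 from 2.88 to 0.88, and Irx3 and Irx5 by 1.66 and 1.41 on the log2 scale. Pax7 differed by -0.94 and Pax3 by -0.03. Wnt1, a ligand of the dorsal midline, rose from -1.83 to 3.31, Bmp4 from 0.33 to 3.25, Msx1 from -0.03 to 2.07 and Msx3 from 0.80 to 3.41, and Lmx1a was listed at D10 alone, at 2.75. The list had a median of 0.86 that turned negative when only genes of higher level were kept (-0.83 at a mean log2 CPM of at least 3).

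Ventral genes rose in controls from low levels. Of 14 floor plate and ventral progenitor genes 8 rose and 1 fell, with a median of 1.17 in controls and 0.04 in the pulsed arm. The control median was 0.21 at a mean log2 CPM of at least 3. Shh, the ligand of floor plate and notochord, rose from -1.51 to 3.17, Foxa2 from 3.87 to 5.38, Nkx6-1 from 1.71 to 3.11 and Lmx1b from -0.44 to 2.75. Foxa2 and Foxa1, which rose by 2.61, are also endoderm genes. Olig2, the motor neuron progenitor factor, stood at 0.85 and 0.04. Ntn1, the axon attractant of the floor plate, fell from 7.61 to 6.56.

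Of 19 ventral and motor neuron factors 7 were listed on both days, with 5 higher and none lower, 11 at D10 alone and none at D5 alone. As with the transmitter genes, that compares with 952 of 16060 genes listed at D10 alone. Gata2 rose from 0.15 to 2.92 and Gata3 from 0.81 to 2.84, and Tal1 was listed at D10 alone, at 3.69. All 3 mark V2b interneurons of the spinal cord and also blood. Phox2a, a factor of visceral and cranial motor neurons, rose from -0.63 to 1.96. The V0 gene Evx1 was listed at D10 alone, at 1.97. Isl1, of motor and sensory neurons, stood at 1.74 and 2.36, and Mnx1 was listed on neither day.

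Of 24 dorsal interneuron factors 13 were listed on both days, with 5 higher and 2 lower. Another 9 were listed at D10 alone, against 952 of 16060 genes. Lhx1 rose from 2.07 to 4.54 in controls and by 4.28 in the pulsed arm, and Tfap2a and Tfap2b rose from 0.29 to 3.28 and from 2.44 to 4.91. Pou4f2, Pax8 and Lbx1 were listed at D10 alone, at 3.42, 2.78 and 2.05. Gbx1, a gene of dorsal progenitors and early dorsal neurons, fell from 3.87 to 0.23, and Pou4f1 stood at 4.42 and 3.52.

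Both Lin28 genes and some genes known as let-7 targets fell. Lin28a, which blocks maturation of let-7 microRNAs, fell from 9.23 to 7.60 and Lin28b from 6.91 to 5.39. The targets on the list that fell with them were Hmga1 by 1.67, Hmga2 by 1.14, Trim71 by 1.47, Igf2bp1 by 1.27 and Igf2bp3 by 1.01. Igf2bp2 differed by -0.43 and stayed within 2-fold. In the pulsed arm these 7 genes, the Lin28 pair and the 5 that fell with it, had differences of -0.88 to -1.64. The late progenitor and glial competence factors Nfia and Nfib rose from 2.71 to 4.16 and from -0.28 to 1.99. Over the list of 17 genes 6 rose and 7 fell.

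Signalling genes of progenitors were lower at D10. Of 23 Notch pathway genes 5 fell and 2 rose, with a median of -0.42. The ligand genes Jag1, Dll1 and Dll4 fell by 1.39, 1.05 and 1.69, and the glycosyltransferase gene Lfng fell from 5.98 to 3.79. The receptor genes Notch1, Notch2 and Notch3 differed by -0.84, -0.60 and -0.77, and the mediator gene Rbpj by -0.16. Dlk1, a noncanonical ligand and imprinted gene, rose from 2.05 to 4.97. Heyl rose from -3.04, the lowest control level at D5, to 1.35, and differed by -0.29 in the pulsed arm.

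Of 17 Hedgehog pathway genes 7 fell and 3 rose, with a median of -0.74. The transducers fell: Gli3 from 7.52 to 5.38, Gli2 from 5.39 to 3.36, Sufu from 5.44 to 4.03 and Kif7 from 4.83 to 3.59. The coreceptor genes Boc and Gas1 fell by 1.54 and 1.15, Cdon differed by 0.83 and the transducer gene Smo by -0.87. Targets of the pathway were unequal in controls. Ptch1 stood at 6.66 and 6.12, Gli1 at 2.62 and 3.05, and Hhip rose from 1.19 to 3.32. In the pulsed arm Gli1, Ptch1 and Hhip differed by -3.80, -2.08 and -2.62, the interval there running from the end of induction to after washout.

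Of 30 Wnt and BMP genes 12 rose and 7 fell. The secreted Wnt antagonist genes Sfrp1 and Sfrp2 fell from 8.99 to 7.08 and from 8.61 to 6.53, and Wnt7a, Fzd10 and Lef1 fell by 1.56, 1.60 and 1.88. Wnt5a rose from 3.24 to 5.64, Fzd5 from 2.96 to 5.27, Dkk1 from 2.56 to 4.35 and Nog from 1.09 to 3.35. The Wnt target Axin2 stood at 5.06 and 4.24, and the BMP target Id1 at 4.07 and 4.39. Of 12 retinoic acid genes 3 rose and 3 fell, with a median of -0.017. Crabp1, Cyp26b1 and Rxra fell, Cyp26b1, which degrades retinoic acid, from 8.02 to 6.22. Dhrs3, Stra6 and the synthesis gene Aldh1a1 rose by 2.85, 1.18 and 1.04. Among axon guidance genes 8 of 32 rose and 5 fell. Unc5c rose from 1.36 to 4.10 and Nrp2 from 4.05 to 6.63, Epha7, Plxna2 and Efna5 fell by 1.49, 1.42 and 1.37, and the commissural receptor genes Dcc and Robo3 differed by 0.51 and 0.35 in controls and by 1.19 and 1.25 in the pulsed arm.

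Genes of non-neural epithelia rose over the same interval. All 17 surface epithelium genes listed on both days rose, with a median of 1.89 (2.52 in the pulsed arm) and a sum that went from 516 to 2098 CPM. The simple epithelial keratin genes Krt8, Krt18 and Krt19 rose from 7.04 to 8.93, from 6.78 to 9.05 and from 2.87 to 6.49. The adhesion genes Cdh1 and Epcam rose from 5.92 to 8.04 and from 3.77 to 6.02, and the claudin genes Cldn6 and Cldn7 by 1.65 and 2.76. The epithelial splicing genes Esrp1 and Esrp2 rose by 2.33 and 1.73. The basal keratin genes Krt5 and Krt14 were listed at D10 alone, at 0.11 and 0.82.

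Of 26 endoderm genes listed on both days 14 rose and 2 fell, with a median of 1.50, and their sum went from 7978 to 21963 CPM. Most of that sum on both days came from 4 basement membrane genes that the matrix list also holds. They rose, with Col4a1 at 11.39 and 13.06, Col4a2 at 10.39 and 12.17, Lamb1 at 10.02 and 11.51 and Sparc at 10.12 and 11.62. The sum is therefore mainly a reading of these genes. Genes of plasma proteins made by visceral endoderm were unequal. Afp rose from 2.30 to 5.94 and Ttr from 3.95 to 6.19, whereas the apolipoprotein genes Apob, Apom and Apoe stayed within 2-fold, with differences of -0.10, -0.41 and 0.45. Transcription factors moved unequally. Hnf4a rose from 3.22 to 5.29, Gata4 stood at 6.60 and 7.53, Sox17 at 4.64 and 5.57, and Gata6 at 5.04 and 5.36. Dab2 stood at 8.34 and 8.63, and its partners in endocytosis, Lrp2 and Cubn, fell by 1.48 and 2.52. The list was chosen with its rise in these samples known.

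Matrix genes rose in 15 of 23 cases and fell in none, with a median of 1.62 and a sum that went from 10733 to 27967 CPM. This list shares Col4a1, Col4a2, Lamb1 and Sparc with the endoderm list. Fn1 rose from 8.74 to 10.51, Nid1 and Nid2 by 1.62 and 1.79, Lama5 from 6.25 to 8.27 and Vtn from 0.51 to 5.04, the last with 0.86 in the pulsed arm. The fibrillar collagen gene Col1a1 rose by 3.38, and the collagen VI gene Col6a1 by 4.07. Hspg2 and Thbs1 stayed within 2-fold, with differences of 0.18 and -0.15. Since endoderm and epithelium genes moved with the neuronal lists over the same interval, the CPM of every neural gene is a share of a pool in which these genes took more. Their part in the neural differences was not tested.

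Smaller lists of other lineages were partly listed. Of 21 mesoderm and cardiac genes 9 were listed on both days and 8 on neither, with 7 higher. The cardiac myosin genes Myh6 and Myh7 rose from 1.88 to 4.90 and from 3.35 to 6.19, Acta2 from 6.70 to 8.68 and Tbx20 from 1.37 to 3.60, while Nkx2-5, Tbx5, Hand1 and Hand2 were listed on neither day and Tnnt2 at D10 alone, at 0.27. Of 20 endothelium and blood genes 7 were listed on both days, with 3 higher and 1 lower, and 10 on neither. Tek and Flt1, receptors for angiopoietin and VEGF, rose from 2.48 to 6.19 and from 4.92 to 7.08 and Cdh5 from 0.50 to 1.94, Eng fell from 0.79 to -0.66, and Kdr and Sox7 differed by -0.47 and -0.46. Neural crest genes split, with Erbb3 rising from 0.78 to 3.45 and Prrx1 from 0.13 to 2.70, Ngfr falling from 4.35 to 3.28 and Sox10 listed at D10 alone, at 0.98. Of 16 glia genes 7 rose and 1 fell. Slc1a3, Tnc and Hopx, genes of radial glia and astrocytes, rose by 2.06, 2.22 and 1.78, and Aqp4 stood at 0.49 and 0.04.

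Most pluripotency genes were lower at D10. Of 27, 17 were listed on both days, with 7 lower and 3 higher, and 9 at D5 alone, among them Nodal, Lefty1, Fgf5 and Tdgf1. Over all genes 316 of 16060 were listed at D5 alone. Pou5f1 fell from 2.66 to -1.06, Dnmt3l from 3.26 to 0.37, Dppa5a from 3.91 to 1.45 and the de novo methyltransferase gene Dnmt3b from 6.92 to 4.56. The members that rose were Tfcp2l1, from 4.18 to 6.79, Klf4, from 3.34 to 5.64, and Esrrb, from 0.58 to 2.58, which are known from epithelia and other tissues as well as from naive stem cells. Zfp42, a naive marker, stood at 1.65 and 1.30.

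Genes of hypoxia and glucose use rose in 7 of 20 cases and fell in none. Slc16a3, Egln3, Pdk1, Bnip3 and Vegfa, which are among the genes known as HIF targets, rose by 1.94, 1.92, 1.88, 1.73 and 1.29. The other members, 13 of them within 2-fold, also include known HIF targets. Slc2a1, Slc2a3, Hk2 and Pgk1 differed by 0.41, 0.455, 0.35 and 0.30, Ldha by 0.52, Aldoa by 0.62, Pkm by -0.75 and Eno1 by -0.85. The 13 genes of the mitochondrial genome all stayed within 2-fold, with a median of 0.28 in controls and 0.10 in the pulsed arm and a sum of 32800 CPM at D5 and 42552 CPM at D10. Of 16 housekeeping genes 15 stayed within 2-fold, with a median difference of 0.04 and a difference of 0.19 for Actb. The exception was B2m, the light chain of class I antigen-presenting molecules, which rose from 4.67 to 6.81.

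A gene listed on a single day passed the authors' filter on that day alone, which is no measure of its level on the other. There were 952 genes at D10 alone and 316 at D5 alone. Most were low, with a median control log2 CPM of 0.24 and -0.48, and 38 and 8 of them reached 3. The 10 highest at D10 were Igfbp1 (5.37), Mab21l2 (5.33), Mab21l1 (4.78), Tnnc1 (4.68), Slc17a6 (4.51), Lamp5 (4.49), Krt20 (4.42), Hapln1 (4.41), Calb2 (4.33) and Cartpt (4.15). They join a product of yolk sac and liver (Igfbp1), a slow muscle and cardiac troponin (Tnnc1) and an intestinal keratin (Krt20) with neuronal genes, namely the calcium binder Calb2 and the neuropeptide gene Cartpt. Among the 10 highest at D5 were 6 members of the Zscan4 family, known from the brief 2-cell-like state of stem cells, at 3.60 to 4.07. These are near-identical copies among which the counts are uncertain. The others were Klhl4 (3.70), Me3, E130310I04Rik and Egr2 (3.69), a gene of hindbrain rhombomeres.

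Most genes that rose or fell in controls differed in the same direction in the pulsed arm. The levels of both arms rest on the same average log2 CPM of each day. In the pulsed arm 1901 genes were at least 2-fold higher at D10 (12.9%) and 829 lower (5.6%). Of the 1840 that rose in controls 1565 also rose there, which is 85.1% of the control genes and 82.3% of the pulsed ones, and 1794 lay above 0. Of the 884 that fell in controls 654 also fell, which is 74.0% and 78.9%, and 881 lay below 0. In 14 genes the arms differed by at least 2-fold in opposite directions, and all 14 rose in controls and fell in the pulsed arm. Among them were Nkx2-2, Nkx6-2 and Hhip, known to answer Hedgehog signals. Nkx2-2 went from -2.51 to 0.42 in controls, with -1.63 in the pulsed arm. The others with a symbol were Cldn1, Epha8, Fgf14, Has2, Hsd11b2, Pgf, Smoc2, Ntng1, Tmem119 and A230077H06Rik. In the authors' deposited table all 14 were higher with GLI1 at D5, with log2 fold changes of 2.08 to 5.38, so their pulsed interval started from an induced level.

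**Figure D4:**
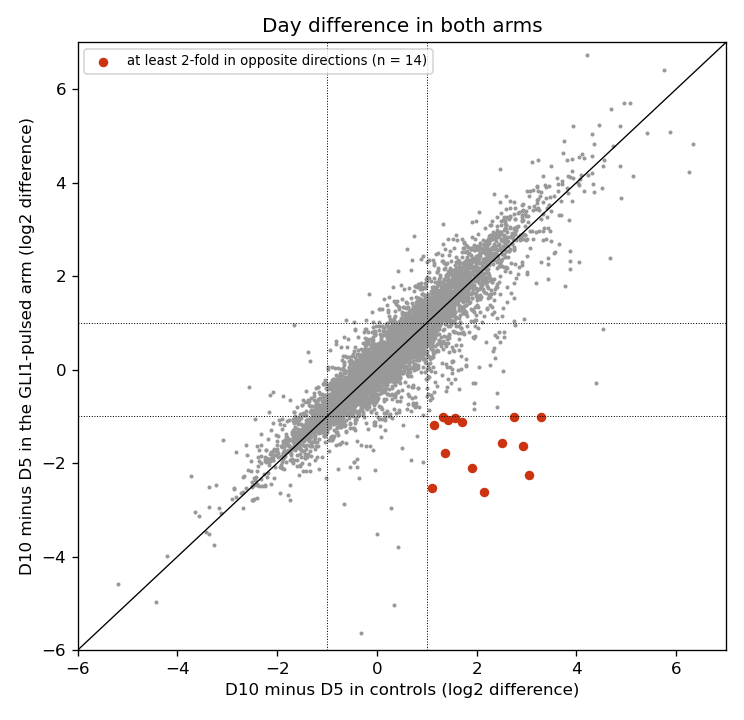
Day difference (D10 minus D5, log2) of each of the 14792 genes in controls (x axis) and in the GLI1-pulsed arm (y axis), with the line of equality and dotted lines at 2-fold. Red points mark the 14 genes that rose in controls and fell in the pulsed arm.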

How the data were processed

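RNA was measured in 14 libraries of polyadenylated RNA, grouped by their labels. Per the file headers, the authors deposited for each day and Entrez gene a log2 fold change of GLI1-induced against control samples, an average log2 CPM, a p-value and an FDR (an adjusted p-value). Left as not given in the sources used here were the aligner, the counting and its strand setting, the filter, the statistical test and the build. Genes that overlap others, antisense ones included, are thus uncertain. The base of the fold change was taken as 2, and the depth per sample is unknown. The labels do not say whether replicates were separate cultures. The control level of a day was computed as the average log2 CPM minus log2((1 + 2 to the power of the fold change)/2), and the D10 level minus the D5 level is the day difference. The calculation was run on simulated data built with the same formula, so its recovery of the control level followed from the algebra. Whether the authors' average log2 CPM was formed in that way was not tested. The authors' FDR was used only to leave out genes changed by GLI1 (645 listed on both days, under 0.05) in 1 alternative and their p-values served no test here. Symbols came from the authors' selected genes and RefSeq (GRCm38.p6), which together gave 94.6% of the identifiers a symbol. Coordinates are those of RefSeq and not the authors'.

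The comparison, the 36 gene lists and the alternatives were chosen with earlier results of these data known, and 3 more lists (imprinted genes, antigen presentation and interferon, Zscan4) after seeing the values. Named genes are the 15 largest rises and falls with a mean control log2 CPM of at least 3, list members, and the 10 highest genes listed on a single day. A few genes that this covers are not reported here. No columns of per-sample values were left out. Python 3.11.15, pandas 2.3.3 and numpy 2.4.6 were used.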

Additional observations from a re-analysis of the deposited data

How the results depend on the processing

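The count of genes that rose was 1840 and the count that fell was 884. With a mean control log2 CPM of at least 3 they were 914 and 520, and with a log2 difference of at least 2 they were 533 and 106. With genes listed on a single day entered at the lowest level of the missing day, 2793 rose. Under the other 8 alternatives both counts stayed within 1.5 times. Of the 36 lists 25 had a median above 0. With the pulsed arm in place of controls, 18 of the 36 list medians moved by at least the spread between arms of 0.14. The pan-neuronal median was then 1.53. The endoderm median was 1.79 without genes changed by GLI1. Medians changed sign with a mean control log2 CPM of at least 3 for transmitter synthesis (-0.16), dorsal and intermediate progenitors (-0.83), neural crest (-0.44), Wnt and BMP genes (-0.22) and the splicing and chromatin list (-0.095). With a minimum of 1 the dorsal and intermediate median was -0.031, and without genes changed by GLI1 the axon guidance median was -0.066. The retinoic acid median of -0.017 became 0.20 with the average of both arms and 0.48 with the pulsed arm. The filters keep fewer genes; beyond that the cause was not tested. Rescaling the days to equal totals shifted all differences by less than 0.01 and left all 36 list medians within the spread between arms of 0.14. No paired analysis was possible because the values used are group values with no value per library, and for the same reason no replicate could be left out. The depth per sample is unknown, so its part in the wider gap between arms at low levels was not tested.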

Other observations

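Imprinted genes, a list made after the values were seen, were higher at D10 in 12 of 23 cases and lower in 3, with a median difference of 1.06 in controls and 0.70 in the pulsed arm. Beside Igf2 and H19, the zinc finger genes Zim1 and Peg3 rose from 1.53 to 5.23 and from 8.52 to 9.71, Usp29 from 2.08 to 4.14, the antisense transcript Airn from 0.43 to 3.19 and Igf2r, which it overlaps, from 7.28 to 8.53. Plagl1, which encodes a zinc finger regulator of other imprinted genes, rose from 4.45 to 6.24 in controls and differed by 0.09 in the pulsed arm. Mest fell from 11.00 to 8.92, Kcnq1ot1 from 5.54 to 4.01 and Peg12 from 7.07 to 4.44, while Peg10, Grb10 and Nnat differed by -0.45, -0.35 and -0.64. Airn and Igf2r lie on opposite strands, and reads of the pair cannot be told apart without strand.

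Genes of antigen presentation and the interferon response, also listed after seeing the values, were higher in 8 of 11 cases and lower in none, with a median of 2.10 (2.16 in the pulsed arm). The class I genes H2-K1 and H2-D1 rose from 3.79 to 6.54 and from 4.32 to 5.91, and the peptide loading gene Tapbp from 3.77 to 5.87. The RNA sensor gene Ddx58 rose from 1.46 to 4.90, Bst2 from 0.79 to 4.84 and Ifitm3 from 2.20 to 4.90. Irf1 and Tap1 stood within 2-fold, with differences of -0.05 and 0.13, and Isg15 was listed at D10 alone, at 0.69.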
